A study of Mus musculus with 4 samples.

Results

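The hemoglobin-rich erythroid cells of the mouse thyroid libraries were the droplet barcodes with 500 to 40000 UMIs, at most 10% of UMIs from mitochondrial (mt-) genes, and at least 50% of UMIs from genes whose names start with Hba- or Hbb-. A unique molecular identifier (UMI) marks 1 captured transcript, and a barcode marks 1 droplet. The rule found 2188 erythroid barcodes among 33644 barcodes with the same UMI and mt- limits. Of the rest, 31183 held under 5% hemoglobin and are called other cells here. The members were chosen by their hemoglobin UMIs, so hemoglobin values are a description and were not tested. Alas2, the marker that the rule did not use, had a UMI in 1944 of the 2188 erythroid barcodes.

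The study profiled thyroid tissue of wild-type mice, named C57 in the labels and C57BL/6 in the study's methods, at postnatal day 5, 10, 20 and 30 by droplet single-cell RNA sequencing, which counts the 3' ends of transcripts. No treatment is named for any group, and all tissue was digested with collagenase and dispase and depleted of dead cells before loading. The study's methods give 10 mice for each age, and there is 1 library per age, so an age has no replicate. The study itself discarded cells with much hemoglobin, so these barcodes were outside its analyses.

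Red blood cells mature from nucleated erythroblasts, which divide a few more times, fill with hemoglobin, expel the nucleus and become reticulocytes. A reticulocyte still carries RNA and mitochondria for a short time, removes its organelles by ubiquitin-dependent breakdown and autophagy, and ends as a mature red cell that cannot make new RNA. Adult hemoglobin joins alpha and beta chains with heme, whose synthesis begins in mitochondria with the enzyme that Alas2 encodes. In the thyroid such cells belong to the blood in its dense capillary bed, not to the epithelium of the gland.

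The promoters of the adult globin genes and of Alas2 are shown because the globin genes chose the cells and Alas2 is the erythroid marker that the rule did not use. Each is the 150 bases directly before the RefSeq start on GRCm38.p6, written 5′ to 3′ on the gene's strand. Capitals mark the letters CACCC on either strand, the letters GATAA on either strand, the letters CCAAT on either strand, and TATAA on the gene's strand only.
Hba-a1: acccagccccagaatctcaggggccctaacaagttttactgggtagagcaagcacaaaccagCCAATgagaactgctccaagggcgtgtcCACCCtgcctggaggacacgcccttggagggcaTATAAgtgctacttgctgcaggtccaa
Hba-a2: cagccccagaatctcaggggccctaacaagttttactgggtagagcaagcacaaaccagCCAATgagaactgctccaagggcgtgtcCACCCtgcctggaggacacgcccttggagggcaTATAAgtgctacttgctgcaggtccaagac
Hbb-bs: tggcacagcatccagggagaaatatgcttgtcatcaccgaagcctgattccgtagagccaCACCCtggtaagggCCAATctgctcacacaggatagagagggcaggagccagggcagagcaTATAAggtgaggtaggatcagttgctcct
Hbb-bt: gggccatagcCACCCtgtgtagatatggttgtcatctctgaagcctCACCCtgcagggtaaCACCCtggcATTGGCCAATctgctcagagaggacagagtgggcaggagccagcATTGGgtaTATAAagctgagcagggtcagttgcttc
Alas2: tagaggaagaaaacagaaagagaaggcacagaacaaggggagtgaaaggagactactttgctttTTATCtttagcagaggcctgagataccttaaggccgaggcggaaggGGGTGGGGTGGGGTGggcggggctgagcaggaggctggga
The windows are chr11:32283522-32283671 and chr11:32296342-32296491 on the plus strand for Hba-a1 and Hba-a2, chr7:103827929-103828078 and chr7:103813924-103814073 on the minus strand for Hbb-bs and Hbb-bt, and chrX:150547267-150547416 on the plus strand for Alas2. All 4 globin windows held CCAAT as well as CACCC on some strand, and TATAA that began 27 to 30 bases before the start, and none held GATAA. The Alas2 window held GATAA 86 bases before its start and 3 CACCC matches end to end on the opposite strand, and neither CCAAT nor TATAA. Adjacent CCAAT matches in the Hbb-bt window run into each other on opposite strands. The windows of Hba-a1 and Hba-a2 shared a run of 147 bases, whereas those of Hbb-bs and Hbb-bt shared at most 14 in a row. The coding sequences of either pair differed at 1 base, over 429 bases for the alpha pair and 444 for the beta pair, so how reads were split within a pair depends on their ends outside the coding sequence and is uncertain.

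The libraries differ in more than their labelled ages. Of the other cells, those of the libraries labelled day 10 and day 30 held more of H19, an imprinted RNA that is known to fall after birth: 195 and 730 counts per 1000000 UMIs other than hemoglobin (CPM), against 7.20 at day 5 and 11.5 at day 20. The order of these levels does not follow the labelled ages, so each library is named below by its label. Depth differed too. The erythroid barcodes held 83542, 251556, 12774 and 177779 UMIs other than hemoglobin in the libraries labelled day 5, 10, 20 and 30, which sets the precision of each level. Between 97.8 and 98.8% of the erythroid barcodes of the libraries labelled day 10, 20 and 30 were also listed in the other matrices of these 3, with a median of 4 to 6 UMIs there, and 99.2 to 99.7% of other cells were, with a median of 9 to 13. Shares for pairs with the library labelled day 5 were 40.7 to 59.8% at a median of 1 UMI. The matrices list 1745460 to 2258644 barcodes. A single barcode was a member in both the library labelled day 5 and that labelled day 30, and 0 to 2 members per pair of libraries held more UMIs in another library than in their own.

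Erythroid barcodes were frequent in the libraries labelled day 10 and day 30 and rare in the others. They were 423 of 14449 barcodes at day 5, which is 2.93% with a Clopper-Pearson 95% interval of 2.66 to 3.22%. At day 10 they were 1008 of 6987, or 14.4% (13.6 to 15.3%). At day 20 they were 80 of 6585, or 1.21% (0.964 to 1.51%), and at day 30 677 of 5623, or 12.0% (11.2 to 12.9%). The intervals of the 2 high libraries do not reach those of the 2 low ones. All intervals here cover counting error only, and with 1 library per age no test between ages was possible. Hemoglobin in free RNA, measured as the barcodes of 10 to 100 UMIs, had the same order for its highest pair, at 4.26, 12.1, 3.56 and 11.9% of UMIs in the libraries labelled day 5, 10, 20 and 30. Blood content of the dissected tissue, age and library cannot be told apart here.

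Few barcodes had a hemoglobin share between those of other cells and erythroid barcodes. The median erythroid barcode held 91.6, 94.9, 95.5 and 94.8% hemoglobin in the libraries labelled day 5, 10, 20 and 30, and 1798 of the 2188 held at least 90%. Between 5 and 50% lay 121, 87, 11 and 54 barcodes of these libraries. At the threshold, the lowest members held 52.1, 51.5, 69.0 and 52.2% hemoglobin, and the highest barcodes left outside held 49.8, 48.4, 30.4 and 46.6%. Hemoglobin was 0.0750, 0.107, 0.0227 and 0.0888% of the UMIs of other cells. The lower UMI limit passed over further hemoglobin-rich barcodes. With at least 200 and under 500 UMIs, 144, 260, 30 and 326 barcodes had at least 50% hemoglobin, mt- limit aside. With at least 100 and under 200 UMIs there were 98, 507, 51 and 580, and with at least 10 and under 100 UMIs 25, 1413, 616 and 1280, or 0.0544, 1.83, 0.789 and 1.64% of the barcodes at that depth. The last of these lie within the barcodes summed as free RNA. Without them, a choice made after seeing the data, 350 genes other than hemoglobin were higher in erythroid barcodes than in free RNA by edgeR's quasi-likelihood test, in place of 353.

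**Figure D1:**
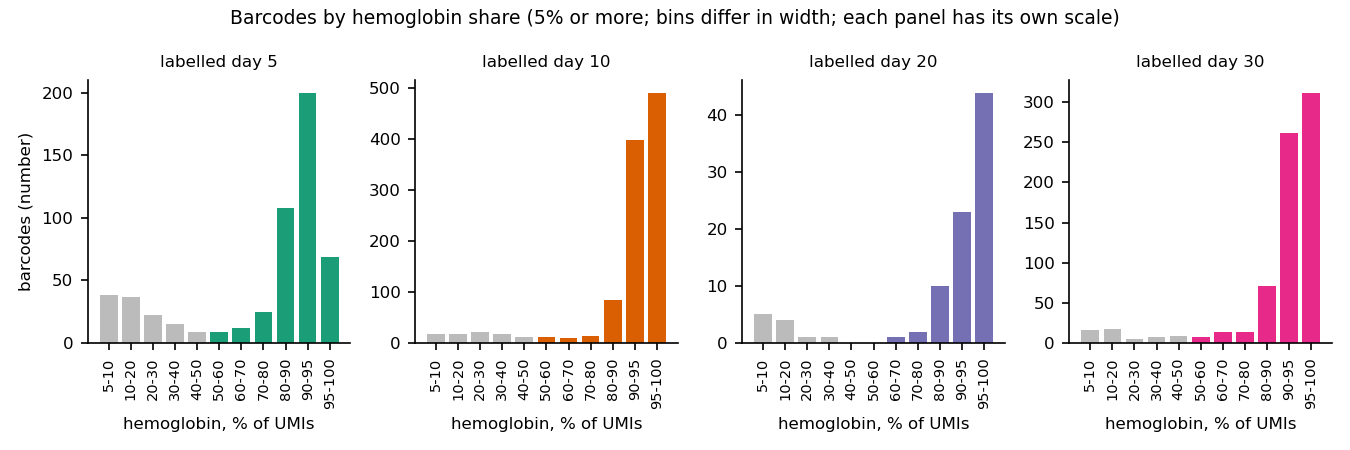
Number of barcodes (y axis, own scale per panel) by hemoglobin share of UMIs (x axis, percent, bins of unequal width, from 5%) in each library as labelled. Most barcodes that meet the rule (colored bars, 50% or more) sit above 80%, and only 121, 87, 11 and 54 barcodes fill the whole range from 5 to 50%.

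The erythroid barcodes carried little RNA besides hemoglobin. In the libraries labelled day 5, 10, 20 and 30 the median barcode had 1465, 3248, 1971 and 2755 UMIs, of which 119, 139, 85.5 and 138 were not hemoglobin. Other cells had medians of 3583, 6156, 3018 and 6956 UMIs. All levels are CPM as defined above, with hemoglobin left out of the total, summed over the barcodes of a library, and since each transcript is counted once at its 3' end they were not divided by length.

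Both alpha genes and both adult beta genes were present in every library, and embryonic chains were close to absent. Alpha chains, from Hba-a1 and Hba-a2, were 38.1% of hemoglobin UMIs at day 5, 30.1% at day 10, 39.7% at day 20 and 36.7% at day 30. The library labelled day 10 was the lowest, and its binomial interval, 30.07 to 30.17%, which covers counting error only, did not overlap the 36.62 to 36.75% of the next library. The few hemoglobin UMIs of other cells had alpha shares of 36.5, 27.9, 36.6 and 33.4% in the same order of libraries, and free RNA had 36.4, 27.0, 35.6 and 32.7%. The library labelled day 10 was the lowest and that labelled day 30 the next in all 3 classes. The alpha share of single erythroid barcodes ran from 25.1% at the 10th percentile to 37.3% at the 90th in the library labelled day 10, and from 31.6 to 43.8% in that labelled day 30, so single barcodes of the libraries overlapped. Hba-a1 made up 57.3, 58.3, 57.7 and 57.4% of alpha UMIs, a range of about 1 percentage point.

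Hbb-bt, one of the 2 adult beta genes, held the smaller part of the beta UMIs beside Hbb-bs. Its share was 17.0% at day 5, 15.3% at day 10, 15.1% at day 20 and 18.6% at day 30. In other cells of the same libraries it was 13.4, 12.7, 13.5 and 15.2%, and in free RNA 14.3, 13.6, 14.3 and 15.6%, so over summed UMIs the erythroid barcodes were the highest of the 3 in all 4 libraries. With each barcode weighted equally their shares were 15.3, 14.1, 13.1 and 16.1%, and the one at day 20 was then below both other cells and free RNA. Of the embryonic genes, Hbb-y had 1 UMI at day 10 and 1 at day 30 among the 3516699 and 2304773 hemoglobin UMIs of erythroid barcodes. Hba-x, Hbb-bh1 and Hbb-bh2 had none in the erythroid barcodes of any library. A count of 0 allows up to 3 counts, which is 0.00154% of hemoglobin in the library labelled day 20, which had the fewest UMIs.

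**Figure D2:**
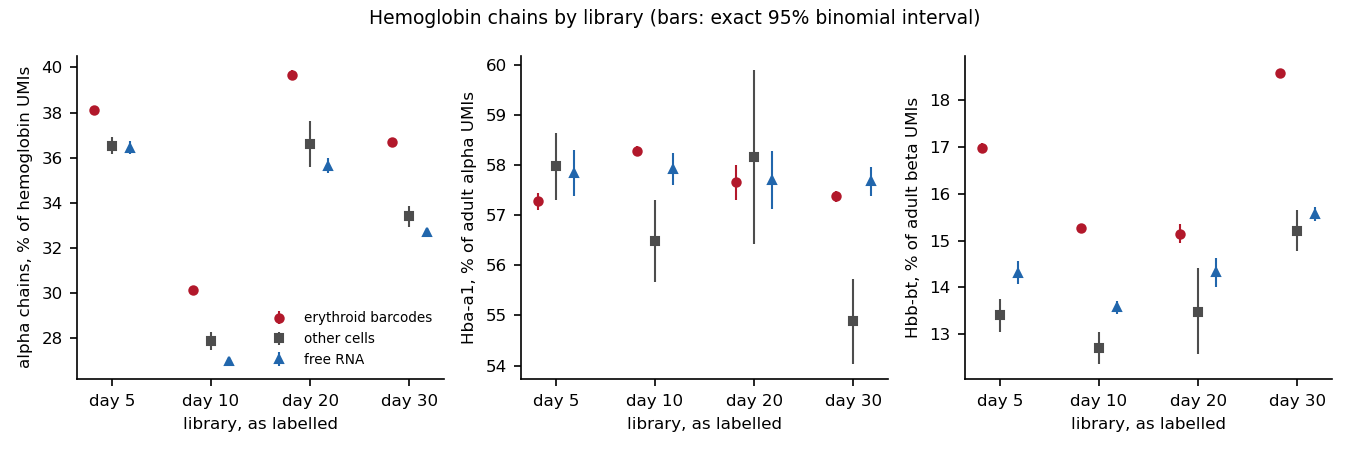
Alpha chains as percent of hemoglobin UMIs (left), Hba-a1 as percent of Hba-a1 and Hba-a2 (middle) and Hbb-bt as percent of Hbb-bs and Hbb-bt (right) by library as labelled, for erythroid barcodes, other cells and free RNA, with exact 95% binomial bars. The alpha share of the library labelled day 10 is the lowest in all 3 classes (30.1, 27.9 and 27.0%), and the Hbb-bt share of summed UMIs is highest in erythroid barcodes in each library, which does not hold at day 20 with each barcode weighted equally (13.1%).

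To find which other genes mark these cells, the UMIs of all genes but hemoglobin were summed over the erythroid barcodes and over the other cells of each library, and the 4 pairs of sums were compared with edgeR's quasi-likelihood test with library as a block. Of 14607 genes tested, 386 were higher in erythroid barcodes (2.64%) and 112 lower (0.767%) at a Benjamini-Hochberg adjusted p below 0.05. Against free RNA, 353 of 8529 genes were higher (4.14%) and 30 lower (0.352%). The median log2 fold change over all genes tested was -0.51 against other cells and -0.26 against free RNA. With library size as the only scaling these medians were -1.20 and -0.63. The counts then became 389 higher and 4110 lower, and 374 higher and 946 lower, so the share of higher calls went from 77.5 to 8.65% against other cells and from 92.2 to 28.3% against free RNA. The lower calls thus depend on the scaling, whereas the numbers of higher calls were close under both. Against other cells, 290 genes were higher and 17 lower without the block, 229 and 21 without the library labelled day 10, and 248 and 9 without that labelled day 30. The 6 lists of red cell genes used below, from heme synthesis to enzymes, hold 93 genes. Of their 84 genes tested against other cells, 57 rose and 1 fell, and of 73 tested against free RNA, 51 rose and none fell. Both comparisons use the same erythroid sums, so their calls are not independent. Genes higher in both numbered 287, which is 74.4% of the first list of higher genes and 81.3% of the second. The red cell lists held 12.4, 21.6, 22.2 and 23.6% of the UMIs other than hemoglobin in erythroid barcodes, 1.29 to 1.73% in other cells and 1.21 to 1.72% in free RNA.

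Promoters of the genes that rose were read in the same 150-base windows. Among 32851 windows in all, 37.4% held CACCC, 13.3% GATAA, 24.5% CCAAT and 9.99% TATAA. Windows were found for 215 of the 287 genes higher in both comparisons, and 46.0, 8.84, 36.7 and 4.19% of them held these letters. For 69 of the 93 genes of the red cell lists the shares were 50.7, 18.8, 26.1 and 4.35%. The matches are descriptions of letters, not of bound factors.

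Heme synthesis genes rose in the main, led by the first enzyme. Alas2 stood at 14424 CPM at day 5, 26237 at day 10, 35149.5 at day 20 and 27478 at day 30. The library labelled day 5 was the lowest and the one labelled day 20 the highest. Other cells had 1.15, 2.01, 0.421 and 1.49 and free RNA 53.7, 162, 52.6 and 149 CPM, so no library overlapped between classes. Alas2 was the highest gene other than hemoglobin on average over the libraries, and its log2 fold change was 14.77 ± 1.24 (SE, n = 4 libraries) against other cells and 8.12 ± 0.63 against free RNA by edgeR's quasi-likelihood test (adjusted p = 5.04e-30 and 2.48e-34). Of 13 listed genes 8 rose against other cells, and of 12 tested 8 rose against free RNA, with list medians of 2.72 and 2.62.

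Among the others, Fech, the last enzyme of the pathway, had 2526, 3220, 7437 and 4989 CPM at day 5, 10, 20 and 30, against 21.7 to 29.7 in other cells. Slc25a37, mitoferrin, which brings iron into the mitochondria, had 3711, 3109, 6732 and 6081. The libraries labelled day 20 and day 30 were the higher pair for both genes. The log2 fold change of Fech against other cells was 7.69 ± 0.78, and Slc25a37 rose too. Slc25a39, a mitochondrial carrier, rose by 5.48 on the log2 scale. Alad, Cpox, Slc25a38, Abcb10 and Tmem14c did not pass against other cells, and Cpox did pass against free RNA. Alas1, the form of the first enzyme that most tissues use, had 59.9, 19.9, 0 and 22.5 CPM in erythroid barcodes and 39.3 to 60.3 in other cells, and its log2 fold change of -0.15 did not pass (edgeR's quasi-likelihood test, adjusted p = 0.907). It was named after its values were seen.

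A minority of iron handling genes were called, though a larger share than among all genes tested. Of 9 tested against other cells, Tfrc and Ftl1 rose and Trf fell, with a list median of -1.12. Over all genes tested 2.64% rose and 0.767% fell. Against free RNA 2 of 8 rose, with a list median of -0.23, beside 4.14% of all genes tested. Ftl1, the light chain of the iron store ferritin, had 12916, 15678, 20119 and 20362 CPM at day 5, 10, 20 and 30 against 2768 to 3423 in other cells. Tfrc, the transferrin receptor that takes up iron in immature red cells, was low, at 47.9, 123, 78.3 and 129 CPM from 4, 31, 1 and 23 UMIs. It was above the 27.8 to 47.3 of other cells in each library, with a log2 fold change of 2.25 ± 0.42 by edgeR's quasi-likelihood test (adjusted p = 4.79e-06). Fth1, the heavy chain of ferritin, had 7792, 9835, 5871 and 11244 CPM and did not pass (log2 fold change 1.25, edgeR's quasi-likelihood test, adjusted p = 0.455).

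Genes of the red cell membrane and its skeleton gave one of the largest shares of calls. Of 19 tested against other cells 16 rose and none fell, with a median log2 fold change of 7.33, and of 16 tested against free RNA 13 rose, with a median of 6.78. Slc4a1, the anion exchanger band 3, had 575 CPM at day 5, 1570 at day 10, 1331 at day 20 and 2076 at day 30, against 0.0263 to 0.212 in other cells. The library labelled day 5 stood alone as the lowest.

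Epb41, the skeletal protein 4.1, had 4692, 4504, 8846 and 6159 CPM against 38.7 to 116 in other cells. Its log2 fold change against other cells was 7.10, and it rose in all 4 libraries. Tspo2, a cholesterol-binding membrane protein of erythroid cells, had 251, 902, 548 and 703 CPM, Kel, the Kell blood group protein, 12.0, 39.8, 78.3 and 124, and Add2, beta adducin, 12.0, 39.8, 157 and 61.9. The Kel values rest on 1, 10, 1 and 22 UMIs and the Add2 values on 1, 10, 2 and 11. Cd24a, a surface antigen of many immature cells, was already 632 to 1109 CPM in other cells and 3088, 5359, 3288 and 4747 in erythroid barcodes. Gypc, Add1 and Cd47 did not pass.

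The genes of terminal maturation, which clear organelles and proteins from the reticulocyte, rose for the most part. Of 19 tested against other cells 16 rose, with a median log2 fold change of 4.91, and of 18 tested against free RNA 16 rose, with a median of 4.74. Mkrn1, a ubiquitin ligase, had 8140, 13949, 15970 and 16790.5 CPM at day 5, 10, 20 and 30, against 58.2 to 92.0 in other cells. Bnip3l, the receptor that removes mitochondria from reticulocytes, had 5698, 6571, 9316 and 8167 against 157 to 221. Ube2l6, a conjugating enzyme for ubiquitin and ISG15, had 4968, 7732, 10490.1 and 8061 against 13.6 to 29.5. In each of these 3 genes the library labelled day 5 was the lowest of the 4.

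Tent5c, a poly(A) polymerase, had 6057, 6424, 15657 and 8792 CPM and was highest at day 20. Gabarapl2, an autophagy protein, had 3962, 5704.5, 4384 and 5321, the most even of the 5. Trim10, a ubiquitin ligase of erythroid cells, had 347, 497, 470 and 591 and no more than 0.190 in other cells. The log2 fold changes against other cells were 7.94 for Mkrn1, 8.70 for Ube2l6, 8.02 for Tent5c, 5.65 for Bnip3l and 4.75 for Gabarapl2. Fbxo7, Ulk1 and Pim1 did not pass against other cells, and Pim1 did against free RNA. The ubiquitin gene Ubb itself, named after its values were seen, had 9624, 37610, 21685 and 30965 CPM against 3961 to 4645 in other cells (log2 fold change 2.76 ± 0.84, edgeR's quasi-likelihood test, adjusted p = 0.0312).

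Most red cell enzymes and related proteins rose as well. Of 14 tested against other cells 11 rose, with a median of 4.41, and of 13 tested against free RNA 10 rose, with a median of 4.44. Bpgm, which makes the 2,3-bisphosphoglycerate that lowers the oxygen affinity of hemoglobin, had 10318, 16374, 21058 and 19057 CPM against 15.5 to 50.8 in other cells. Its log2 fold change was 9.67 ± 1.00 by edgeR's quasi-likelihood test (adjusted p = 1.89e-19). It was lowest in the library labelled day 5.

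Gpx1, Prdx2 and Blvrb split the libraries another way. Gpx1, glutathione peroxidase, had 4106 CPM at day 5, 18978 at day 10, 6498 at day 20 and 16340.5 at day 30. Prdx2, peroxiredoxin 2, had 2621, 10204, 3914 and 10243, and Blvrb, which reduces biliverdin and flavins, had 1149, 4262, 1253 and 3881. The libraries labelled day 10 and 30 were the higher pair for all 3 genes, with Poisson 95% intervals for Gpx1 of 18443 to 19524 and 15752 to 16946 against 3683 to 4564 and 5175 to 8055. In other cells Gpx1 ran from 343 to 567 CPM, with the library labelled day 5 the highest. Gpx4, another glutathione peroxidase, had 886, 405, 705 and 658 CPM, did not pass against other cells and did not show that split. Pgam1 and Epor did not pass either.

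Several transcription factors of early erythroid cells were at the limit of detection. Gata1, the master regulator of the lineage, gave UMIs of 0, 3, 0 and 1 at day 5, 10, 20 and 30, and Klf1, which switches on the adult beta gene, had 1 UMI in all, at day 10. Epor, the erythropoietin receptor, had 1 UMI, at day 30. These 3 genes were named after their values were seen. The same limit of 3 counts is 35.9, 11.9, 235 and 16.9 CPM in these libraries, so at this depth a low level cannot be told from none. Of 10 factors tested, Nfe2, Lmo2, Hemgn and Foxo3 rose against other cells, and Lmo2 and Foxo3 rose of 6 tested against free RNA. Lmo2, a bridging protein of the GATA1 complex, had 347, 457, 626 and 399 CPM against 31.8 to 72.7 in other cells. Foxo3, a factor of late maturation, had 47.9, 139, 235 and 124 against 22.5 to 49.1, from 4, 35, 3 and 22 UMIs. Myb, a factor of dividing progenitors, had 0, 0, 78.3 and 78.7 CPM and did not pass (log2 fold change 0.02, edgeR's quasi-likelihood test, adjusted p = 0.989).

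The gene Hbq1a, a theta globin of the alpha cluster whose name falls outside the rule, had 251, 203, 783 and 248 CPM at day 5, 10, 20 and 30, on 21, 51, 10 and 44 UMIs, and in other cells 0 in 3 libraries and 0.0452 at day 30. It could pass the filter on low counts only through the erythroid barcodes. Its copy Hbq1b had 59.9, 326, 0 and 219 and was not tested, since it did not pass the filter on low counts. The coding sequences of the pair were 94.3% identical, so their split is uncertain. Apol11b, a gene of the apolipoprotein L family, had 575, 394, 391 and 321 CPM and no more than 0.0796 in other cells. Paqr9, a membrane receptor of the progestin and adipoQ family, had 120, 95.4, 705 and 208. Fitted fold changes of genes this close to 0 in other cells depend on the prior count and are not given.

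Calls among cell division genes were near the share over all genes tested, so they say little about the list. Of 20 tested against other cells only Ube2c rose and none fell, with a median log2 fold change of -0.97. Over all genes tested 2.64% rose and 0.767% fell. Against free RNA 1 of 19 rose, with a list median of -0.69, beside 4.14% of all genes tested. Summed over the list, erythroid barcodes had 2095, 3156, 2192 and 4011 CPM at day 5, 10, 20 and 30. Other cells had 1580, 2795, 6937 and 5582, so the order of the classes differed between libraries. Ube2c, the conjugating enzyme of the anaphase-promoting complex, had 862, 2051, 1096 and 2481 CPM at day 5, 10, 20 and 30 against 9.26, 46.9, 206 and 188 in other cells (log2 fold change 5.09 ± 0.71, edgeR's quasi-likelihood test, adjusted p = 6.82e-11). Mki67, the common marker of cycling cells, had 0, 11.9, 0 and 73.1 CPM, from 0, 3, 0 and 13 UMIs. H2afz, a histone variant, had 598, 437, 470 and 433 and was below the 797 to 1859 of other cells in every library without passing (edgeR's quasi-likelihood test, adjusted p = 0.527). At least 5 UMIs of the whole list were found in 76 of the 2188 erythroid barcodes.

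Rsad2, Isg15 and Oaz1 were named after their values were seen. Rsad2, an antiviral enzyme that interferon induces, had 2334, 2556, 2740 and 3763 CPM at day 5, 10, 20 and 30, against 48.8 to 108 in other cells and 25.0 to 49.1 in free RNA. Isg15, a ubiquitin-like modifier that interferon also induces, had 1029, 3431, 1331 and 2790 against 53.7 to 104. Their log2 fold changes against other cells were 5.58 ± 0.69 and 5.02 ± 0.70 (edgeR's quasi-likelihood test, adjusted p = 1.25e-13 and 7.91e-11). Oaz1, which limits polyamine synthesis, had 8463, 12256, 13543 and 10187 CPM and rose by 3.48 on that scale. Cxcl10, another interferon target, had 0, 7.95, 0 and 0 CPM against 49.4 to 67.2 in other cells and was among the genes that fell.

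Fibroblast genes, those of the connective tissue, fell as a list. Of these markers all 7 were lower than in other cells and none passed against free RNA, with medians of -2.34 and -1.20. Fbln2, a matrix protein, had 0, 7.95, 0 and 28.1 CPM against 64.9, 210, 73.5 and 197 in other cells, and Igf1, a growth factor of stromal cells, 12.0, 27.8, 0 and 33.7 against 101 to 358. Their log2 fold changes were -2.93 ± 0.63 and -2.70 ± 0.57 (edgeR's quasi-likelihood test, adjusted p = 0.000182 and 0.000113). Among genes moved the same way in all 4 libraries, the other large falls against other cells were Bicc1, Slco3a1, Svep1, Fbln5, Cxcl10, Ythdf2, Cyfip1 and Sms, each with 8 or fewer UMIs in all erythroid barcodes. With the same limit, the largest falls against free RNA were Ltc4s, Spint1, Plet1, Ccdc141, Ppp1r1b, Stard10, Psmg4, Timm23, AU021092 and Grp, each with 10 or fewer. These genes had no UMI in erythroid barcodes at day 20, so they passed the filter on low counts only with the compared class. With at least 50 UMIs required in members, 9 of the 112 genes lower than other cells were called lower again. Against free RNA it was 1 of the 30. None of the 30 genes lower than free RNA was called with members limited to at least 80% hemoglobin, which gave 15 other genes.

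Beside other cells, the share of mitochondrial transcripts was higher in erythroid barcodes and that of ribosomal protein transcripts was lower. Mitochondrial genes were 13.2, 9.54, 15.8 and 8.86% of the UMIs other than hemoglobin at day 5, 10, 20 and 30, against 2.92 to 4.32% in other cells and 18.0 to 27.8% in free RNA. The level thus lay between cells and free RNA in all 4 libraries. These shares are a description, since the rule's mt- limit of 10% of all UMIs, hemoglobin included, applied to erythroid barcodes and other cells and not to free RNA. The 13 mt- genes were part of the fits, where 6 were called higher than other cells and none passed against free RNA. As the rule used mt- UMIs, these calls are no independent support. With mt- genes left out, 379 genes were higher than other cells in place of 386. Ribosomal protein genes held 12.3, 11.6, 7.94 and 9.44% against 15.6, 14.4, 19 and 15.6% in other cells. Of 95 tested against other cells 0 passed, where 2.64% of all genes tested were higher and 0.767% lower. Against free RNA 1 of 91 was lower and 0 higher, beside 0.352 and 4.14% of all genes tested. Gm42418, an RNA that overlaps ribosomal RNA sequence and was named after its values were seen, had 19870.2, 15563, 31392 and 20570.5 CPM, above the 2026 to 2631 of other cells and below the 29338 to 49324 of free RNA.

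**Figure D3:**
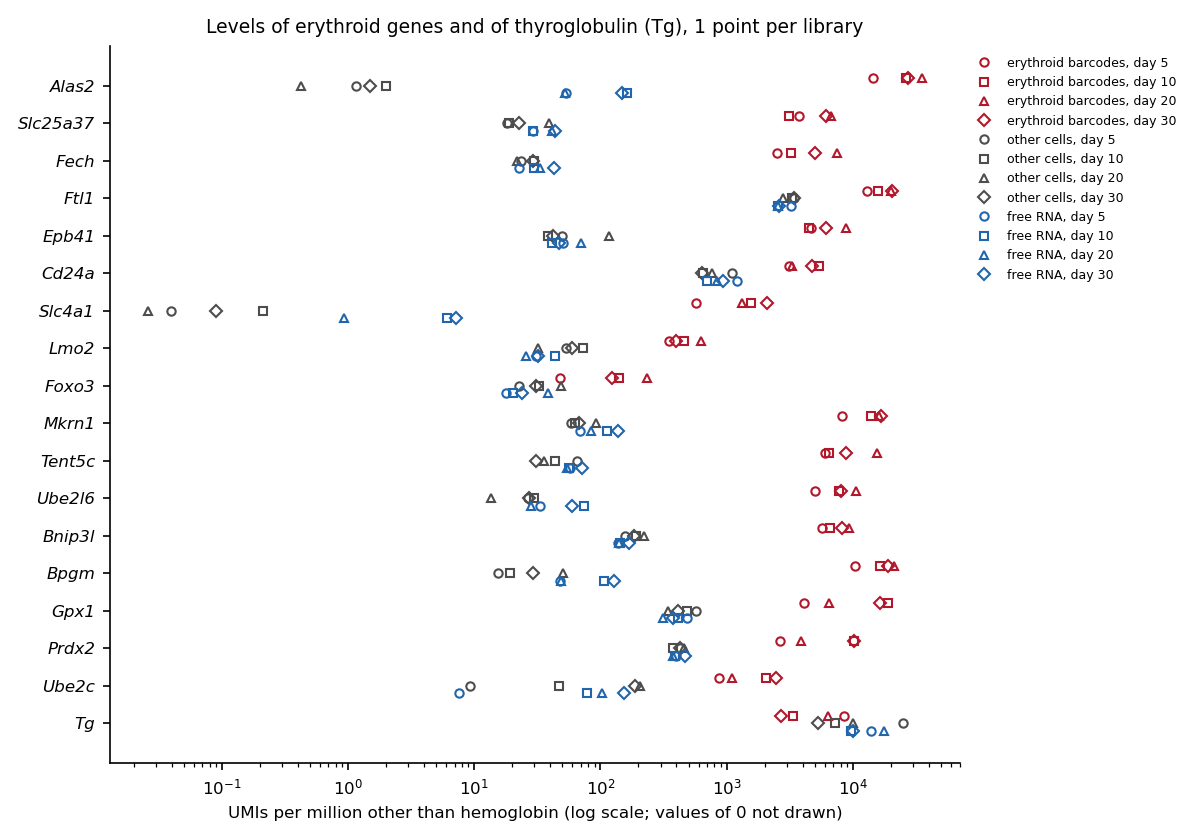
Levels of 17 erythroid genes and thyroglobulin (Tg) in counts per 1000000 UMIs other than hemoglobin (x axis, log scale) for erythroid barcodes, other cells and free RNA, 1 point per library with the label as its symbol and values of 0 not drawn. Red points of Alas2, Slc4a1 and Bpgm lie far from the others, Foxo3 and Cd24a lie closer to them, and Tg is lower in erythroid barcodes than in the other cells of the same library.

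Alas2 was found in most single barcodes. A UMI of Alas2 was present in 79.7, 91.1, 91.2 and 91.0% of erythroid barcodes at day 5, 10, 20 and 30, against 0.575, 1.32, 0.246 and 1.23% of other cells, whose median depth was larger. With every barcode thinned to 500 UMIs, the shares were 52.2, 59.5, 71.2 and 62.6% against 0.072, 0.119, 0.031 and 0.225%. At least 3 UMIs of Alas2 were found in 1476 of the 2188 erythroid barcodes. Bpgm was present in 31.7, 35.5, 33.8 and 41.2% after thinning. Slc4a1 was sparser, in 8.51, 22.5, 11.25 and 25.4% before and 2.84, 3.57, 5.00 and 6.35% after thinning, against at most 0.136 and 0.0204% of other cells.

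The makeup of the erythroid barcodes changed with their depth. In 4 bins that began at 500, 1000, 2000 and 5000 UMIs, which held 397, 538, 737 and 516 barcodes, the alpha share was 38.1, 36.2, 34.3 and 32.1%. The Hbb-bt share of adult beta UMIs moved the other way, at 11.8, 13.1, 15.9 and 17.9%. The red cell lists held 12.7, 18.3, 23.3 and 20.8% of the other UMIs, and mitochondrial genes 16.0, 15.5, 11.6 and 7.45%. Deep barcodes thus had a lower alpha share, a higher Hbb-bt share and a smaller mitochondrial share of other UMIs than shallow ones.

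Within each library the lowest and the highest bin kept this order for these 3 measures. From the lowest to the highest bin, the Hbb-bt share was 12.4 and 18.6% at day 5, 10.8 and 16.3% at day 10, 8.68 and 16.8% at day 20 and 12.8 and 20.6% at day 30. The alpha share was 42.0 and 34.4% at day 5, 33.2 and 29.2% at day 10, 45.4 and 39.4% at day 20 and 38.7 and 35.9% at day 30. The library labelled day 20 had 16 and 6 barcodes in these bins, so its end values are the least certain. Among the 1798 barcodes with at least 90% hemoglobin, the Hbb-bt share was 10.8, 12.5, 15.8 and 18.0% over the 4 bins, and the alpha share was 36.3, 35.8, 34.3 and 32.1%. The mitochondrial share was 14.8, 15.3, 10.7 and 7.94%, but in the library labelled day 20 it was 5.19% in the lowest bin, on 385 other UMIs, and 8.10% in the highest. In these barcodes the red cell lists held 12.9, 19.7, 29.3 and 32.8% of other UMIs, without the drop in the deepest bin when libraries were pooled. At day 20 the drop remained, from 33.8% in the third bin to 26.2% in the deepest, which held 5 barcodes. Over summed UMIs free RNA had a lower Hbb-bt share and a lower alpha share than the erythroid barcodes of each library, but the lowest bin lay below the Hbb-bt share of free RNA in all 4 libraries. The part of free RNA in these trends was not tested.

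**Figure D4:**
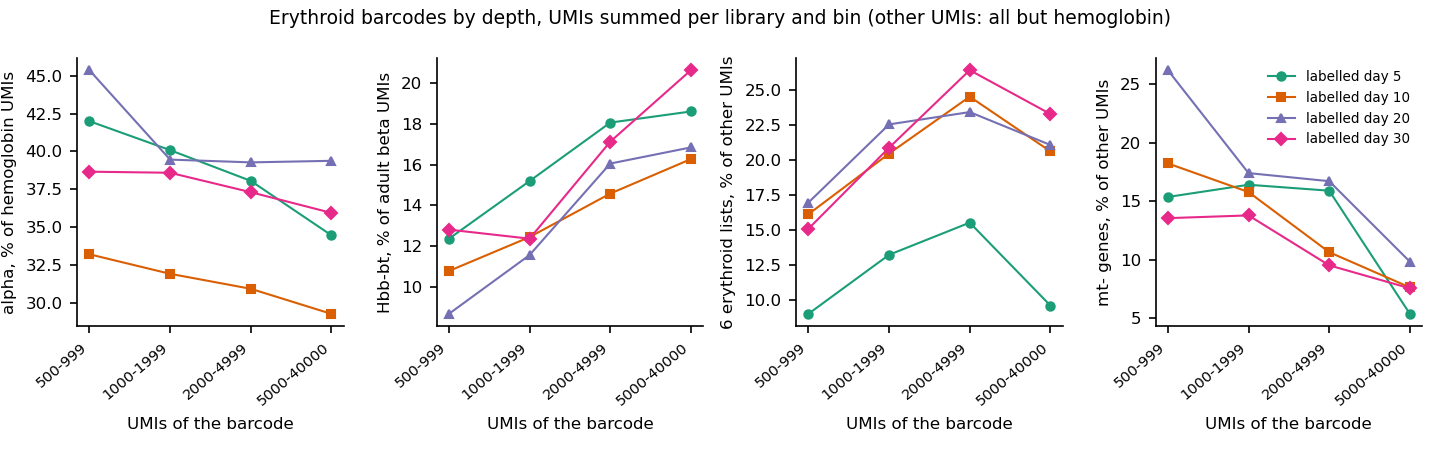
Alpha share of hemoglobin, Hbb-bt share of adult beta UMIs, the 6 red cell lists and mitochondrial genes as percent of UMIs other than hemoglobin (y axes, from left) in 4 bins of UMIs per barcode (x axis), 1 line per library as labelled, with no error bars. In all 4 libraries the Hbb-bt share is higher in the deepest than in the shallowest bin and the alpha and mitochondrial shares are lower, though the library labelled day 20 has only 16, 24, 34 and 6 barcodes in its bins.

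In barcodes nearer the hemoglobin threshold, red cell genes made up a smaller share of the other UMIs. These groups were formed by the hemoglobin share that the rule used, and those with 50 to 80% had a median of 532 other UMIs against 110.5 to 136.5 in the rest, so the shares are a description. With 50 to 80% hemoglobin there were 117 barcodes, with 80 to 90% 273, with 90 to 95% 882 and above that 916. Alas2 in these groups was 3553, 16087, 30879 and 45393.5 CPM, and the red cell lists held 4.69, 16.4, 28.0 and 31.2% of the other UMIs. Markers of other cell types, as listed below, held 3.15, 1.56, 0.851 and 0.906%. The 117 barcodes under 80% made up 28.4% of all UMIs other than hemoglobin, so that sums over members weigh them heavily. With members limited to at least 80% hemoglobin, Alas2 stood at 20528, 34445.5, 39164 and 37181 CPM at day 5, 10, 20 and 30, and the library labelled day 5 was again the lowest. With the limit at 30% the values were 8546, 17244, 32221 and 18714, and that library was the lowest there too.

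Most of the 12 marker lists of other cell types were lower in the erythroid barcodes than in other cells, and some sat mainly in single barcodes. The exceptions were macrophage markers at day 5 (1843 against 1685 CPM), platelet markers at day 5 (192 against 174) and day 20 (157 against 99.4), and T cell (310 against 157), neutrophil (791 against 427) and mast cell markers (731 against 54.9) at day 10. Thyroid follicular markers were at 9157, 3637, 6576 and 2919 CPM at day 5, 10, 20 and 30, against 26196, 7750, 10436 and 5908 in other cells and 14874, 10181, 18434 and 10885 in free RNA. None of the 8 follicular genes passed against other cells, where 2.64% of all genes tested were higher and 0.767% lower. None of 7 passed against free RNA, where 4.14% were higher and 0.352% lower, so these counts say little. Tg, thyroglobulin, the follicle's main product, was named after its values were seen and had 8487, 3379, 6341 and 2683 CPM. It was below other cells of the same library in each case. Follicular UMIs were spread over 964 barcodes, of which the richest held 5.56% of them.

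Neutrophil markers gave 213 UMIs in all, and 193 of them, or 90.6%, were in 1 barcode of the library labelled day 10 with 61.8% hemoglobin. Mast and basophil markers gave 191 UMIs, of which 181, or 94.8%, were in another barcode of that library, with 61.5% hemoglobin. The mast cell genes Cma1 and Cpa3 were called higher than in other cells, and their levels of 529 and 187 CPM at day 10 were 11.2 and 5.62 at day 30 and 0 in the libraries labelled day 5 and 20. C cell and parathyroid markers gave 2402 UMIs, and 1 barcode at day 10 with 68.4% hemoglobin held 44.7% of them. Calca, the calcitonin gene, named after its values were seen, had 754, 6305, 548 and 1839 CPM in the erythroid barcodes of the 4 libraries. Such barcodes hold RNA of 2 kinds of cell, and no doublet caller was run.

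Fibroblast markers gave 1280 UMIs with 36.4% in 1 barcode of the library labelled day 10, endothelial markers 950 with 14.2%, macrophage markers 403 with 11.7% and T cell markers 390 with 16.9%. Platelet and megakaryocyte markers gave 54 UMIs, pericyte and smooth muscle markers 143, thymocyte markers 65 and B cell markers 63. In the library labelled day 20 the B cell, neutrophil, mast cell and pericyte lists were at 0. Against other cells, 1 of 6 B cell genes and 1 of 7 macrophage genes fell and 0 of the T cell, thymocyte, endothelial, pericyte, platelet and neutrophil genes passed by edgeR's quasi-likelihood test. Over all genes tested 2.64% were higher and 0.767% lower, so a count of 0 on lists of 4 to 7 tested genes says little. At least 5 UMIs of 1 list other than the follicular one were found in 68 barcodes, which had a median of 69.2% hemoglobin and held 23.6% of the other UMIs. The other 2120 had a median of 94.6%. The part of these 68 barcodes in the levels above was not tested on its own. With at least 80% hemoglobin, which removes 69.1% of them, 413 genes were higher than in other cells, 346 of them among the 386.

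**Figure D5:**
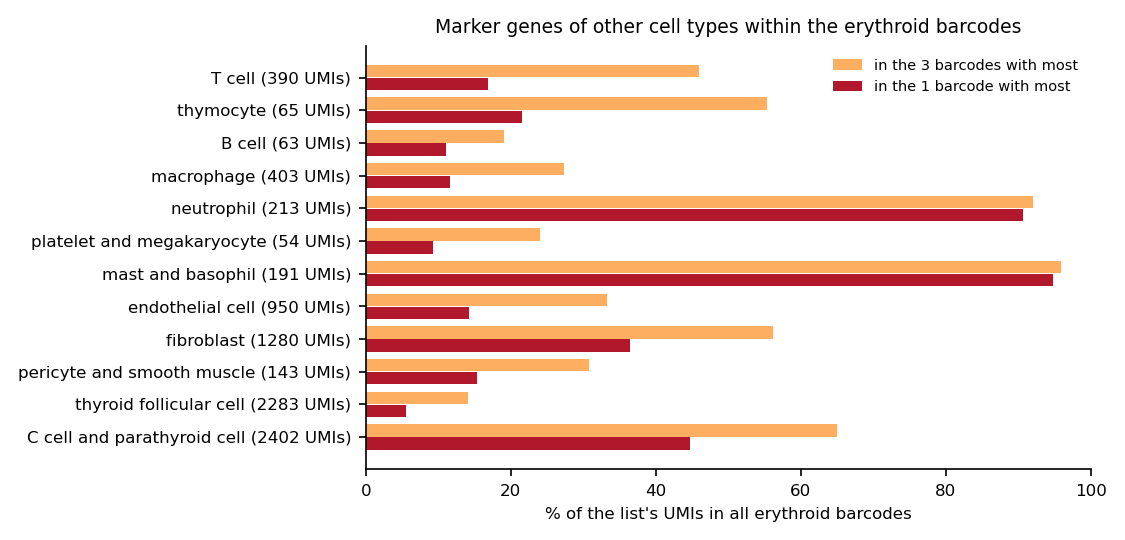
Percent of the UMIs of each marker list (x axis) found in the 1 barcode (red) and in the 3 barcodes (orange) with most of them, out of all 2188 erythroid barcodes, with the list's UMI number in brackets. Neutrophil and mast cell markers lie almost wholly in 1 barcode (90.6 and 94.8%), whereas the 2283 follicular UMIs are spread (5.56% in the richest).

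Levels of non-hemoglobin genes in the erythroid barcodes differed by 2-fold or more between libraries for many genes. Compared with the library labelled day 5, that labelled day 10 had 104 of 960 genes higher (10.8%) and 202 lower (21%). The library labelled day 20 had 66 of 582 genes higher (11.3%) and 173 lower (29.7%), and that labelled day 30 had 128 of 965 higher (13.3%) and 187 lower (19.4%). These counts are sizes without a test, and the 3 comparisons share the day 5 library. The median log2 ratio over all genes was -0.34, -0.33 and -0.24.

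Red cell genes were higher than at day 5 where they passed the fold, with a single exception. Of the enzyme list, 8 of 12 genes were higher and 1 lower at day 10, 4 of 11 higher at day 20 and 7 of 12 higher at day 30. Of the membrane list 5 of 10, 2 of 6 and 7 of 10 were higher, and of the maturation list 2 of 16, 5 of 13 and 7 of 16. Heme synthesis genes gave 2 of 6, 2 of 4 and 2 of 6, and no gene of the heme, iron, membrane, factor or maturation lists was lower in any of the 3. Median log2 ratios of the enzyme list were 1.19, 0.67 and 1.21 in erythroid barcodes and -0.28, -0.75 and -0.54 in other cells. The makeup of the erythroid barcodes differed as well. At least 90% hemoglobin was held by 63.6, 88.2, 83.75 and 84.6% of them in the libraries labelled day 5, 10, 20 and 30. Red cell genes held a smaller share of other UMIs in barcodes with less hemoglobin, and the part of this in these list ratios was not tested. Of other cell types, macrophage genes were lower in 4 of 4 in each comparison, with median log2 ratios of -1.67, -2.50 and -2.34 against 1.22, -0.19 and 0.99 in other cells. Fibroblast genes were higher in 4 of 4 at day 10 and 3 of 4 at day 30, with medians of 3.15 and 2.40 against 2.37 and 2.50. Single barcodes weigh on these sums. At day 10, 466 of the 925 fibroblast UMIs were in 1 barcode with 51.5% hemoglobin, and at day 5, 47 of the 154 macrophage UMIs were in 1 barcode with 57.5%.

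The genes with the largest log2 ratios between the libraries labelled day 30 and day 5 included those of other cells. Postn, Col3a1, Trbc1 and Trbc2, genes of fibroblasts and T cells, had log2 ratios of 5.02, 3.14, 3.95 and 4.78 in erythroid barcodes and 4.66, 2.50, 4.57 and 4.24 in other cells. Postn was at 0 in the erythroid barcodes at day 5, so its ratio depends on the pseudocount.

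The 5 largest falls were in chemokine and class II genes. Cxcl2, a chemokine, had 1161, 79.5, 0 and 11.2 CPM at day 5, 10, 20 and 30, and Ccl4, another, had 527, 31.8, 78.3 and 11.2. The class II genes H2-Aa, H2-Eb1 and H2-Ab1, which present antigen in B cells and macrophages, had 563, 910 and 599 at day 5 and 11.2, 28.1 and 22.5 at day 30. Log2 ratios of day 30 to day 5 were -6.37 for Cxcl2, -5.24 for Ccl4, -5.34 for H2-Aa, -4.89 for H2-Eb1 and -4.58 for H2-Ab1. In other cells the same ratios lay between -2.41 for Ccl4 and -0.71 for Cxcl2. Each of the day 30 values rests on 2 to 5 UMIs. Of the genes of immature tissue, H19 had 0, 43.7, 0 and 73.1 CPM in erythroid barcodes, Igf2 12.0, 35.8, 0 and 28.1 and Dlk1 12.0, 0, 0 and 11.2. H19 was found in the same 2 libraries in which other cells held most of it.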

How the data were processed

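The authors digested thyroid tissue of 10 mice per age, prepared 10x Genomics 3' libraries, aligned the reads to mouse mm10 with CellRanger and deposited raw UMI counts per gene and barcode with no cell filter, 1 matrix per library. The submitters' processing notes also name Seurat 3.1.4 and 3.6.3. A further deposited count table with 1 pooled set of columns was not used, since its barcodes carry numbers that no label ties to a library. No doublet caller was run here.

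The members and gene lists were chosen with earlier results of these data known. UMIs were summed over erythroid barcodes, over other cells (under 5% hemoglobin) and over free RNA (barcodes of 10 to 100 UMIs) in each library, and genes starting Hba- or Hbb- were left out. The 8 sums of a comparison were tested with edgeR 4.0.16 (TMM, filterByExpr, quasi-likelihood test, two-sided, Benjamini-Hochberg over all genes tested, adjusted p below 0.05) in R 4.3.3. Library was a block, because both sums of a library share its tissue, droplets and run, so that the pairing comes from the design. Standard errors are the log2 fold change divided by the square root of F and approximate. On simulated data with 4-fold changes the fit recovered 94% of changed genes against other cells and 83% against free RNA, and with 2-fold changes 7 and 16%, with 2 false calls each. The simulation gave all libraries 1 profile and a dispersion of 0.05. It had as many rises as falls, only in genes expected at 5 or more UMIs in the median erythroid sum. The libraries here differ from one another and most calls are rises, so these rates may not hold for the real calls. Between libraries, log2 ratios used a pseudocount of 0.5 UMIs, a 2-fold limit, at least 100 CPM on average and at least 20 UMIs in the pair, without a test, since each age has 1 library. Shares have exact Clopper-Pearson and levels exact Poisson 95% intervals.

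Named genes were all hemoglobin genes, Alas2, up to 5 genes of each list with the highest level, the 10 largest rises and falls moved the same way in all 4 libraries in each comparison, the 5 largest rises and falls between the libraries labelled day 30 and day 5, and H19, Igf2 and Dlk1. Other genes were named after their values were seen. Some genes of the lists are counted but not reported here by name. Alternatives changed the tool (DESeq2 1.42.0), normalization, low-count filter, block, libraries, hemoglobin, UMI and mt- limits, shared barcodes, denominator, weights, pseudocount and fold. Sequences and gene positions are those of RefSeq on GRCm38.p6 and of GENCODE on GRCm38. Python 3.11.15, numpy 2.4.6, scipy 1.17.1, pandas 2.3.3 and matplotlib 3.10.9 served for the rest.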

Additional observations from a re-analysis of the deposited data

How the results depend on the processing

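Numbers of genes higher than other cells or free RNA stayed within 1.5 times of 386 and 353 under every alternative except those without 1 library, which ranged from 229 (without day 10) to 472 (without day 20) and from 227 (without day 10) to 486 (without day 20), with 248 and 231 without day 30. Numbers of lower genes moved more. Against other cells, 112 became 4110 with library size only, 171 with RLE, 220 with at least 50 UMIs in members, 17 with no replicate block, so that the pairing by library matters there, and 475 with at least 80% hemoglobin, and ranged from 9 (without day 30) to 189 (without day 20), with 21 without day 10. Against free RNA, 30 became 82 with DESeq2, 946 with library size only, 96 with RLE, 111 with no filter, 193 with at least 50 UMIs, 15 with at least 80% and 170 with at least 30% hemoglobin, 54 with at most 5% mt- UMIs and 79 with free RNA of 10 to 50 UMIs. Without 1 library they ranged from 0 (without day 10, where edgeR gave 415 at an unadjusted p below 0.05) to 84 (without day 20), with 4 without day 5 and 3 without day 30. Of the 14607 and 8529 genes tested, 1001 passed the filter of 50 UMIs. Of the lower genes under that filter, only 9 were among the 112 and 1 among the 30. The block changed no other count by over 1.5 times. With each barcode weighted equally the Hbb-bt share was 14.66% (main 16.49%) and Alas2 36331 CPM (main 25822), means of 4 libraries. Genes past the fold at day 10 were 159 higher and 343 lower of 1446 with at least 50 CPM (main 104 and 202 of 960), and 185 and 372 of 960 at 1.5-fold. At day 20, 132 of 582 were higher at 1.5-fold, and 28 higher and 81 lower of 367 with at least 80% hemoglobin (main 66 and 173 of 582). At day 30, 229 were higher and 343 lower of 965 at 1.5-fold. Of 1639 alternative values of named genes that were called, 1496 kept direction and call, 143 lost the call and 0 reversed. A gene that an alternative did not test is left out of the 1639, so calls removed by a filter are not counted as lost. Many of these genes were named as the largest changes of the main fits, so the lack of reversals is no independent support. The alternative of free RNA under 50% hemoglobin (350 higher, 30 lower) was chosen after seeing the data. At least 50 CPM and at least 80% hemoglobin also change the number of genes considered. The cause of these shifts was not tested otherwise. Depth limits the levels most in the library labelled day 20, with 80 barcodes and 12774 UMIs other than hemoglobin.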
